A study of Homo sapiens with 4 samples.

Results

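The genes described here are 9 genes of HLA class I antigen presentation, taken by symbol from the 61806 genes of the count table. They are the heavy chains HLA-B, HLA-C, HLA-E and HLA-F, the light chain B2M, the peptide transporter subunits TAP1 and TAP2, the loading factor TAPBP and the transactivator NLRC5. RNA was sequenced from U118-MG, an established human glioma line, in 2 groups. The SPNS2 group (2 libraries) carried a lentiviral vector of the pCDH type, in which a CMV promoter drives SPNS2, an exporter of the signalling lipid sphingosine 1-phosphate. The NC group (2 libraries) carried the negative control vector. Both groups went through infection, their genotype is given as WT, and the sources used here do not say whether a pool or a clone was grown. The comparison asks how RNA levels differ between cells with added SPNS2 and control cells.

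Class I molecules show peptides from the cell interior to CD8+ T cells, and some of them are read by natural killer cells. A heavy chain folds in the endoplasmic reticulum with the light chain, while the TAP transporter carries in peptides cut by the proteasome. Tapasin, the product of TAPBP, holds the empty molecule next to the transporter until a peptide fits. Nearly all nucleated cells make class I, interferons raise it, and NLRC5 acts at the promoters of its genes together with RFX, CREB and NF-Y factors.

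Total counts were 31353373 and 34125159 in the SPNS2 libraries and 31513400 and 32992150 in the NC libraries. The introduced gene was read 7381 and 8224 times in the SPNS2 libraries, against 42 and 47 times in the NC libraries. The glioma markers VIM, CD44, NES and SOX9 were present in all libraries, whereas S100B had no count in any of them and GFAP had at most 8. Of the 7 markers in that list, SLC1A3, a glial glutamate transporter, rose to 20.2 and 17.8 CPM in the SPNS2 libraries, against 1.12 and 0.921 CPM in the NC libraries (edgeR adjusted p = 0.0016). VIM was also called higher (1.49-fold) and NES lower (0.561 of NC). Among endothelial markers, PECAM1 was called higher (2.10-fold, 186 and 224 counts in SPNS2 against 80 and 120 in NC) and VWF lower (0.159 of NC, 12 and 4 counts in SPNS2 against 53 and 53 in NC). The epithelial markers EPCAM, KRT19 and CDH1 had at most 11 counts each. Of 8 leukocyte markers, AIF1 and TYROBP were at 0 in all libraries and PTPRC had at most 10 counts. The leukocyte markers summed to 76.7 and 66.5 CPM in the SPNS2 libraries, against 130 and 111 CPM in the NC libraries, nearly all of it from CD68. CD68, which is also made outside leukocytes, was at 70.9 ± 7.45 CPM in SPNS2 and 120 ± 13.7 CPM in NC (SD, n = 2 each). The part of these markers in the results was not tested. CPM here means counts per 1000000 counts of a library after TMM scaling (trimmed mean of M values). In bulk RNA, fewer cells of a type and less RNA per cell cannot be told apart. Separate cultures are not named for the replicates in the labels, so p-values measure the spread between these libraries, which may be technical.

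The promoters of 5 of these genes are shown because interferon acts on class I genes through short elements in them. Each line gives the 250 bases before the RefSeq start on GRCh38.p14, 5′ to 3′ on the gene's own strand. Capitals mark GAAA repeated after any 2 bases, the core of interferon-stimulated response elements, or a shorter form, GAANNGAAA, on either strand.
TAP1, chr6:32853705-32853954, minus strand: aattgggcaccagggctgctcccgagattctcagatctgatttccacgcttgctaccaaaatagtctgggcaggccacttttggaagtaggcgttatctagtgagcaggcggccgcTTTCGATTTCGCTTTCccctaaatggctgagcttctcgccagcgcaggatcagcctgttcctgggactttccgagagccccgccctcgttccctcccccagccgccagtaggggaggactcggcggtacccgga
TAPBP, chr6:33314079-33314328, minus strand: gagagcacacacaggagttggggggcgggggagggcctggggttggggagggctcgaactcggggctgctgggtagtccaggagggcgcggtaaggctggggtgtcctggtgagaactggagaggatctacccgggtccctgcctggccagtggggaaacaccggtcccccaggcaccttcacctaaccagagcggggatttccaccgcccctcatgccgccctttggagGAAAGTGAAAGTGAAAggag
HLA-B, chr6:31357180-31357429, minus strand: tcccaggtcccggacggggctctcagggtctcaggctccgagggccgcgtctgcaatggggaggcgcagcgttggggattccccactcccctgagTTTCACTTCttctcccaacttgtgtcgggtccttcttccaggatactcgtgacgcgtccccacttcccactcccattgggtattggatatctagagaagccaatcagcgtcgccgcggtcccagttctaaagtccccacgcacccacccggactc
HLA-C, chr6:31272093-31272342, minus strand: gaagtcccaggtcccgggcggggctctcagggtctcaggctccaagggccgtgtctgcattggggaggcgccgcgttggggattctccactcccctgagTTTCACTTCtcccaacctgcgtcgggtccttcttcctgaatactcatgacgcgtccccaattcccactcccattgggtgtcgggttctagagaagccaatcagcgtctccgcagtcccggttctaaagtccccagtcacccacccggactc
B2M, chr15:44711267-44711516, plus strand: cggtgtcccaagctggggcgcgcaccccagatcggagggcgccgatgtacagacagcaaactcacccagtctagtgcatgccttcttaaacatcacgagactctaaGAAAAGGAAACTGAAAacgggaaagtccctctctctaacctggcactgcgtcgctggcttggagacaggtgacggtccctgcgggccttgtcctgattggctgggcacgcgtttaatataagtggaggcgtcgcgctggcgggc
The full GAAA repeat was found in this window in 5 of the 7 genes with an entry in the promoter table (B2M, HLA-F, TAP1, TAP2 and TAPBP), and in 3.02% of all 35116 promoters of the table. In TAP1, TAPBP and B2M 2 matches overlap. The shorter form, chosen after the letters were read, was in HLA-B, HLA-C and TAP2 and in 6.56% of all promoters. In TAP2 the match of the shorter form overlaps that of the longer. TAP1 had a further entry with a later start and no match, which is not shown. CCAAT, the letters bound by NF-Y, stood in 5 of the 7 (B2M, HLA-B, HLA-C, HLA-F and TAP1) and in 32.0% of all promoters, on either strand. The letters TGACG, found in sites of CREB-like factors, stood in B2M, HLA-B, HLA-C and TAP2 and in 21.2% of all promoters. The NF-kB consensus matched in B2M, HLA-B, HLA-C, TAP1 and TAPBP and in 5.21% of all promoters. A match describes the letters of the reference and is not a measured binding site.

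Most of the class I genes differed little between SPNS2 and NC cells. TAP1 fell to 0.791 of its NC level and TAPBP rose to 1.24 of it, and the other 7 genes were not called. Calls rest on edgeR's quasi-likelihood test, with the Benjamini-Hochberg adjusted p over 17853 tested genes below 0.05. All 9 members passed the low-count filter. The 2 calls among 9 members stand beside 23.4% of all tested genes called, with 12.1% higher and 11.3% lower. The median log2 fold change of the members was -0.08, and that of all tested genes -0.01.

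**Figure D1:**
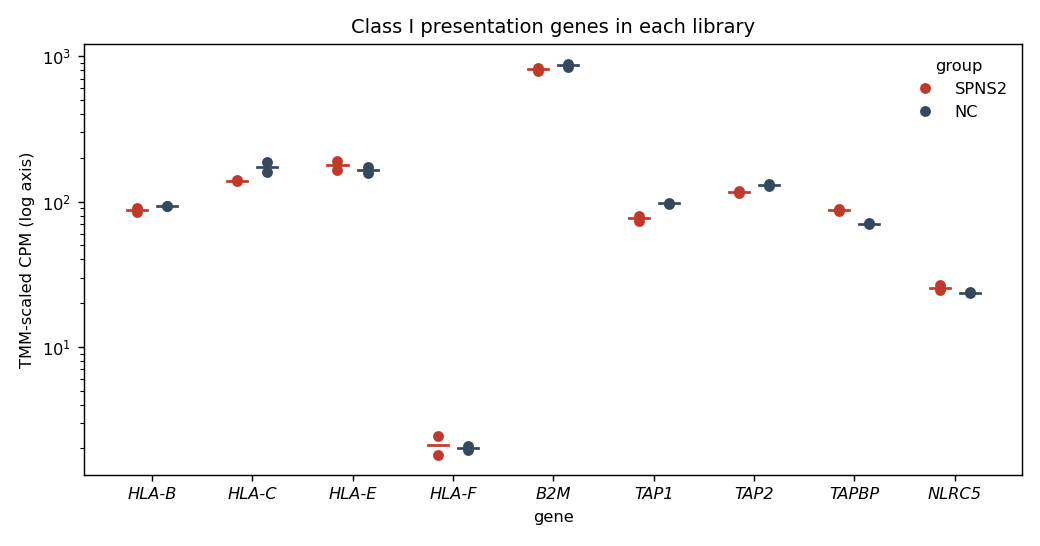
Level of each class I presentation gene in each library, in TMM-scaled CPM on a log axis. Points are libraries, short lines the group means, with SPNS2 left of NC. B2M is the most abundant and HLA-F the least. The points of SPNS2 and NC do not overlap for 7 members, all but HLA-E and HLA-F. The same holds for 66.0% of all tested genes.

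Among the heavy chains, HLA-B and HLA-C present peptides to T cells, and HLA-C is also a ligand of killer cell immunoglobulin-like receptors. HLA-B (ENSG00000234745) was at 90.2 and 84.4 CPM in the SPNS2 libraries, against 92.6 and 92.5 CPM in the NC libraries. The groups did not overlap, but the log2 fold change was only -0.08 (SE 0.067, edgeR adjusted p = 0.425), with a 95% interval of the fold from 0.834 to 1.07. HLA-C (ENSG00000204525) was at 139 and 140 CPM in the SPNS2 libraries, against 159 and 188 CPM in the NC libraries. Both SPNS2 libraries lay below both NC libraries, and the NC libraries differed from each other by more than the lower of them differed from the SPNS2 libraries. The log2 fold change of HLA-C was -0.32 (SE 0.096), with an interval of the fold from 0.673 to 0.959 and an edgeR adjusted p of 0.0839, so it was not called. Its unadjusted p was 0.0255, and 3 of the 9 members, HLA-C, TAP1 and TAPBP, had one under 0.05. Of all tested genes, at least the 23.4% that were called also had one under 0.05, and the full share was not counted.

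HLA-E and HLA-F are less variable class I genes. HLA-E presents mainly leader peptides of other class I chains to NKG2 receptors of natural killer cells. HLA-E (ENSG00000204592) was at 189 and 166 CPM in the SPNS2 libraries, against 174 and 158 CPM in the NC libraries. The groups overlapped, and the fold of 1.07 had an interval from 0.898 to 1.28 (edgeR adjusted p = 0.505). HLA-F (ENSG00000204642) had 75 and 60 counts in the SPNS2 libraries, against 63 and 70 counts in the NC libraries. The fold of 1.05 had the widest interval of the members, from 0.617 to 1.77 (edgeR adjusted p = 0.893), so the data leave a difference within that range open. How much of this width comes from the low counts was not tested. Antisense to HLA-F, HLA-F-AS1 had 170 and 172 counts in the SPNS2 libraries, against 124 and 95 in the NC libraries. Its exons overlap those of HLA-F over 535 bases, and the strand setting of the counting is not given in the sources used here. HLA-F summed with its 3 overlapping genes was at 9.13 and 8.21 CPM in SPNS2, against 6.83 and 6.09 CPM in NC (edgeR adjusted p = 0.146). This sum and those that follow were added after the data were seen.

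Together, HLA-B, HLA-C, HLA-E and HLA-F were at 406 ± 19.9 CPM in SPNS2 and 434 ± 8.68 CPM in NC (SD, n = 2 each), a ratio of 0.937. With HLA-G and the class I pseudogenes added, the ratio was 0.938. Further classical heavy-chain genes were not analysed here. Within the sum, HLA-C made up 32.96% and 35.78% in the SPNS2 libraries, against 37.3% and 42.7% in the NC libraries. HLA-E made up 45.0% and 42.2% in the SPNS2 libraries, against 40.6% and 35.8% in the NC libraries. The HLA-B share lay between 21.02% and 21.66% in all 4 libraries. These shares depend on each other, and the difference in them was not tested.

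The light chain gene B2M (ENSG00000166710, chromosome 15, 44711487 to 44718877 on GRCh38) was the most abundant member. It was at 828 and 795 CPM in the SPNS2 libraries, against 889 and 848 CPM in the NC libraries. The groups did not overlap, and the fold of 0.934 had the narrowest interval of the members, from 0.852 to 1.02 (edgeR adjusted p = 0.23). The 593 tested genes of 15q, the arm of B2M, had a median log2 fold change of -0.21, below the -0.10 of B2M itself. The ratio of B2M to the summed CPM of the 4 heavy chains was 1.97 and 2.03 in the SPNS2 libraries, against 2.08 and 1.93 in the NC libraries. The groups overlapped in this ratio.

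The transporter is a dimer of TAP1 and TAP2. TAP1 (ENSG00000168394, chromosome 6, 32845209 to 32853978) was at 80.0 and 73.3 CPM in the SPNS2 libraries, against 95.7 and 98.1 CPM in the NC libraries. Both SPNS2 libraries were lower, and TAP1 fell by 0.34 on the log2 scale (SE 0.074, edgeR adjusted p = 0.0399). The interval of its fold was 0.69 to 0.907. This absolute change was larger than that of 45.9% of the tested genes. TAP1 was not called without NC replicate 1 (adjusted p = 0.125), without NC replicate 2 (0.143), without SPNS2 replicate 1 (0.0769) or without SPNS2 replicate 2 (0.138) in edgeR, while its log2 fold change stayed between -0.39 and -0.27.

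TAP2 (ENSG00000204267, chromosome 6, 32821833 to 32838780) was at 114 and 119 CPM in the SPNS2 libraries, against 128 and 131 CPM in the NC libraries. The groups did not overlap, and the fold of 0.897 was not called (edgeR adjusted p = 0.14). A gene on the same strand, ENSG00000250264, shares 2064 of its 2705 exon bases with TAP2. It had 508 and 513 counts in the SPNS2 libraries, against 83 and 116 in the NC libraries, and rose 5.27-fold (edgeR adjusted p = 0.0047). When both were summed, the level was 130 and 134 CPM in the SPNS2 libraries and 131 and 134 CPM in the NC libraries. The fold of the sum was 0.996 (edgeR adjusted p = 0.957). Of the distinct 50-base stretches in TAP2's protein-coding transcripts, 32.7% also stood in transcripts of another gene. How reads were divided between the overlapping genes was not tested.

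Tapasin bridges the transporter and the empty class I molecule. TAPBP (ENSG00000231925, chromosome 6, 33299694 to 33314387) was at 85.5 and 89.3 CPM in the SPNS2 libraries, against 70.7 and 70.5 CPM in the NC libraries. Both SPNS2 libraries were higher, and TAPBP rose by 0.31 on the log2 scale (SE 0.064, edgeR adjusted p = 0.0355), with an interval of the fold from 1.10 to 1.39. The call was lost without NC replicate 1 (adjusted p = 0.134), NC replicate 2 (0.134), SPNS2 replicate 1 (0.0881) or SPNS2 replicate 2 (0.134) in edgeR. Its log2 fold change then lay between 0.28 and 0.36. The ratio of TAPBP to TAP1 in CPM was 1.07 and 1.22 in the SPNS2 libraries, against 0.738 and 0.718 in the NC libraries. It sets the member called higher over the one called lower, so its separation follows from their levels, and it was not tested. The full GAAA repeat stands in the promoter windows of TAPBP and TAP1, and also in those of B2M, HLA-F and TAP2, which were not called.

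NLRC5 (ENSG00000140853, chromosome 16, 56989485 to 57083531) had 820 and 819 counts in the SPNS2 libraries, against 766 and 787 counts in the NC libraries. This came to 26.6 and 24.5 CPM in SPNS2 and 23.9 and 23.4 CPM in NC. The groups did not overlap, but the fold of 1.08 had an interval from 0.893 to 1.31 (edgeR adjusted p = 0.485). The genes of at least 5 CPM most like NLRC5 over the 4 libraries were THRAP3, MKS1 and TBCE. Their root mean square differences from it in mean-centred log2 CPM were 0.0115, 0.0117 and 0.0127.

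**Figure D2:**
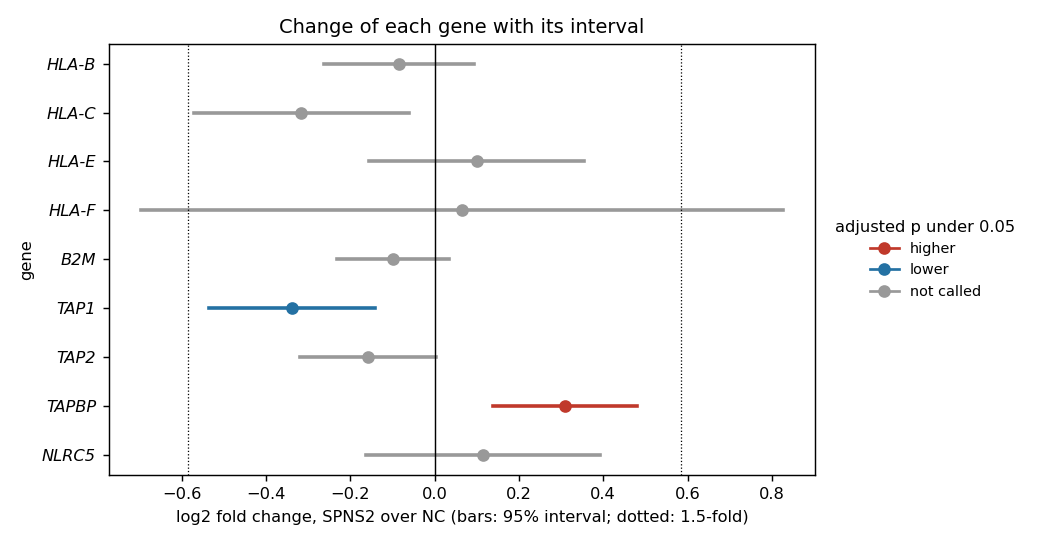
Log2 fold change of SPNS2 over NC for each member, with its 95% interval from the edgeR fit. The dotted lines mark 1.5-fold in either direction, and only the interval of HLA-F crosses them. The whole interval lies below 0 for TAP1 and above 0 for TAPBP, which were both called, and below 0 for HLA-C, which was not.

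Set against the whole table, the sizes of these changes were small. The fold was between 0.8 and 1.25 in 8 of the 9 members, and in 44.1% of all tested genes. Among tested genes averaging 20 CPM or more, which 8 of the members reach, it was so in 57.7%, and 31.6% were called. The count of members within these bounds depends on where they are set. HLA-C (0.803) and TAPBP (1.238) lay just inside them, and TAP1 (0.791) just outside. The 95% interval of the fold lay within 1.5-fold of NC in either direction in 8 of the 9 members, all but HLA-F. This held for 27.7% of all tested genes and for 53.1% of those of at least 20 CPM. The groups did not overlap at 7 of the 9 members and at 66.0% of all tested genes.

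Levels can be compared between genes only per length, here as CPM per kilobase of all annotated exons. That length counts exons of every annotated transcript, whether or not the cells use it. For B2M, TAP1 and TAP2 it is 6079, 4805 and 6390 bases, while their protein-coding transcripts hold 2375, 2955 and 6175 distinct 50-base stretches. Per length of those transcripts the order of genes could differ, which was not tested. B2M led with 133 ± 3.90 in SPNS2 and 143 ± 4.73 in NC (SD, n = 2 each). HLA-E (59.6 ± 5.59 in SPNS2, 55.6 ± 3.80 in NC) and HLA-C (55.6 ± 0.501 in SPNS2, 69.2 ± 7.97 in NC) came next. HLA-E and HLA-C overlapped in the SPNS2 libraries, and in NC the libraries of HLA-C lay above those of HLA-E. HLA-B followed at 28.6 ± 1.34 in SPNS2 and 30.3 ± 0.0308 in NC. TAP2, TAPBP and TAP1 stood close together in SPNS2, at 18.2 ± 0.58, 17.3 ± 0.534 and 15.9 ± 0.995. In NC, TAP2 and TAP1 (20.3 ± 0.302 and 20.2 ± 0.348) overlapped and TAPBP was lower at 13.96 ± 0.0272. NLRC5 was at 2.07 ± 0.119 in SPNS2 and 1.91 ± 0.0289 in NC, and HLA-F at 0.488 ± 0.104 in SPNS2 and 0.466 ± 0.0187 in NC. HLA genes vary between people and resemble each other, so the reads kept for each one depend on how closely the cells' alleles match the reference, which was not tested. In the reference transcripts, 2.12% of the 50-base stretches of HLA-B, 6.17% of those of HLA-C, 5.13% of those of HLA-E and 1.25% of those of HLA-F also stood in another gene.

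Peptides for class I are cut by the proteasome and trimmed by aminopeptidases. In a list of 14 such genes, 4 rose, 1 fell and 9 were not called. The called share was 35.7%, near the 31.6% called among all tested genes averaging 20 CPM or more, a level that 13 of the 14 reach. The median of their log2 fold changes was 0.28. The aminopeptidase ERAP1, which trims peptides in the endoplasmic reticulum, rose 1.39-fold to 87.3 ± 4.95 CPM in SPNS2, against 62.9 ± 6.14 CPM in NC (edgeR adjusted p = 0.0359). LNPEP, an endosomal aminopeptidase, rose 1.42-fold, and the cytosolic peptidases TPP2 and NRDC rose 1.35- and 1.27-fold (edgeR adjusted p = 0.0291, 0.0247 and 0.0183). ERAP1 and LNPEP lie on 5q, whose 701 tested genes had a median log2 fold change of 0.43, beside 0.47 for ERAP1 and 0.51 for LNPEP. LAP3, another aminopeptidase, fell to 61.9 ± 1.74 CPM in SPNS2, against 77.1 ± 1.44 CPM in NC. Its log2 fold change was -0.32, beside a median of -0.30 over the 173 tested genes of its arm, 4p. TPP2 (0.44) and NRDC (0.34) lie on 13q and 1p, with medians of 0.06 and 0.04. The interferon-induced proteasome subunits PSMB8, PSMB9 and PSMB10 were not called, with folds of 1.03, 1.23 and 1.31 (edgeR adjusted p = 0.79, 0.115 and 0.321). PSMB9 and TAP1 are transcribed away from a shared promoter. The ratio of TAP1 to PSMB9 in CPM was 1.53 and 1.61 in the SPNS2 libraries, against 2.35 and 2.52 in the NC libraries. Since the groups already did not overlap at either gene, in opposite directions, they cannot overlap in this ratio, which was not tested.

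Class I folds and loads with factors of the endoplasmic reticulum, most of which also serve other glycoproteins. Of 8 listed genes, 5 fell, none rose and 3 were not called. The called share was 62.5%, beside 31.6% of tested genes averaging 20 CPM or more, a level 7 of the 8 reach. The median log2 fold change of the 8 genes was -0.32. The chaperone HSPA5 fell to 1318 ± 82.2 CPM in SPNS2, against 1931 ± 14.7 CPM in NC (edgeR adjusted p = 0.0067). PDIA3, the disulfide isomerase of the loading complex, fell to 479 ± 10.0 CPM in SPNS2, against 620 ± 2.02 CPM in NC (edgeR adjusted p = 0.0104). The glucosidase GANAB, the glucosyltransferase UGGT1 and the lectin chaperone CALR had folds of 0.795, 0.807 and 0.856 and were called lower. Their edgeR adjusted p-values were 0.0106, 0.0218 and 0.0499, so CALR lay just under the cut-off. The median log2 fold change was -0.39 on 11q, the arm of GANAB (-0.33), and -0.21 on 15q, the arm of PDIA3 (-0.37). CANX, the other lectin chaperone, was at 1702 and 1540 CPM in the SPNS2 libraries, against 762 and 1459 CPM in the NC libraries, and was not called (edgeR adjusted p = 0.285). BCAP31, an export factor of the endoplasmic reticulum, was at 92.0 and 73.7 CPM in the SPNS2 libraries, against 62.1 and 61.9 CPM in the NC libraries, and was not called (edgeR adjusted p = 0.0803). TAPBPL, a tapasin relative that edits peptides, was at 7.70 ± 0.593 CPM in SPNS2 and 10.2 ± 1.21 CPM in NC (edgeR adjusted p = 0.163).

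Of 7 genes that act on class I turnover, 3 fell, 1 rose and 3 were not called. This is 57.1% called, beside 31.6% of tested genes averaging 20 CPM or more, a level 6 of the 7 reach. The median log2 fold change of the 7 genes was 0.06. The ubiquitin ligase MARCHF4, which removes class I from the surface when overexpressed, rose 6.74-fold to 8.09 ± 1.70 CPM in SPNS2, against 1.196 ± 0.368 CPM in NC (edgeR adjusted p = 0.0099). Its relative MARCHF9 fell to 23.3 ± 0.464 CPM in SPNS2, against 30.7 ± 0.386 CPM in NC (edgeR adjusted p = 0.0464). SUSD6 and TMEM127, which act with the ligase WWP2 in class I degradation, fell to 0.706 and 0.775 of NC (edgeR adjusted p = 0.025 and 0.0172). WWP2 itself had a fold of 1.21 and was not called (edgeR adjusted p = 0.112).

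No gene among 12 factors that act at class I promoters was called by edgeR, and the list's median log2 fold change was -0.04. Among all tested genes averaging 20 CPM or more, a level 11 of the 12 reach, 31.6% were called. Of the 12 factors, 2 had an unadjusted p under 0.05 in edgeR, and neither DESeq2 nor limma-voom called any. With SPNS2 replicate 2 left out, edgeR called RELA. RFX5, a subunit of the complex that NLRC5 joins, was at 48.5 ± 1.76 CPM in SPNS2 and 44.0 ± 0.772 CPM in NC. IRF1, an interferon regulatory factor, was at 38.4 ± 5.65 CPM in SPNS2 and 33.3 ± 0.344 CPM in NC. The smallest p in the list belonged to NFYA, a subunit of NF-Y, with a fold of 0.843 (edgeR adjusted p = 0.0902). NFYB, another NF-Y subunit, had a fold of 0.807 (edgeR adjusted p = 0.142). The NF-kB subunits NFKB1 and RELA had folds of 0.827 and 0.671, with edgeR adjusted p-values of 0.104 and 0.133.

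Interferon receptors and their signalling genes were lower in part. Of 12 genes, 7 fell, none rose and 5 were not called. The share called was 58.3%, beside 31.6% of tested genes averaging 20 CPM or more, a level 9 of the 12 reach. The median log2 fold change of the 12 genes was -0.42. The receptor chain IFNAR1 fell to 50.1 ± 2.49 CPM in SPNS2, against 109 ± 1.48 CPM in NC (edgeR adjusted p = 0.0027). IFNGR1, a chain of the interferon gamma receptor, fell to 0.708 of NC and the kinase JAK2 to 0.58 of NC. SOCS1 and SOCS3, feedback inhibitors of the pathway, fell to 0.152 and 0.472 of NC (edgeR adjusted p = 0.0173 and 0.0032).

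Interferon-stimulated antiviral genes were listed beside the class I genes. Of 24 listed genes, 13 fell, 1 rose and 10 were not called (58.3% called, beside 23.4% of all tested genes). Their median log2 fold change was -0.86, beside -0.08 for the class I genes. RSAD2 fell to 0.813 ± 0.0904 CPM in SPNS2, against 12.6 ± 1.44 CPM in NC. BST2, tetherin, fell to 0.478 ± 0.38 CPM in SPNS2, against 26.0 ± 3.39 CPM in NC (edgeR adjusted p = 0.0058). OAS3, CMPK2 and OAS1 had folds of 0.497, 0.311 and 0.189 and were called lower. GBP1, an interferon-induced GTPase, rose 2.56-fold to 46.6 ± 2.40 CPM in SPNS2, against 18.2 ± 1.51 CPM in NC (edgeR adjusted p = 0.0043). All lists were chosen with earlier results of these data known, and the difference between the lists was not tested.

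**Figure D3:**
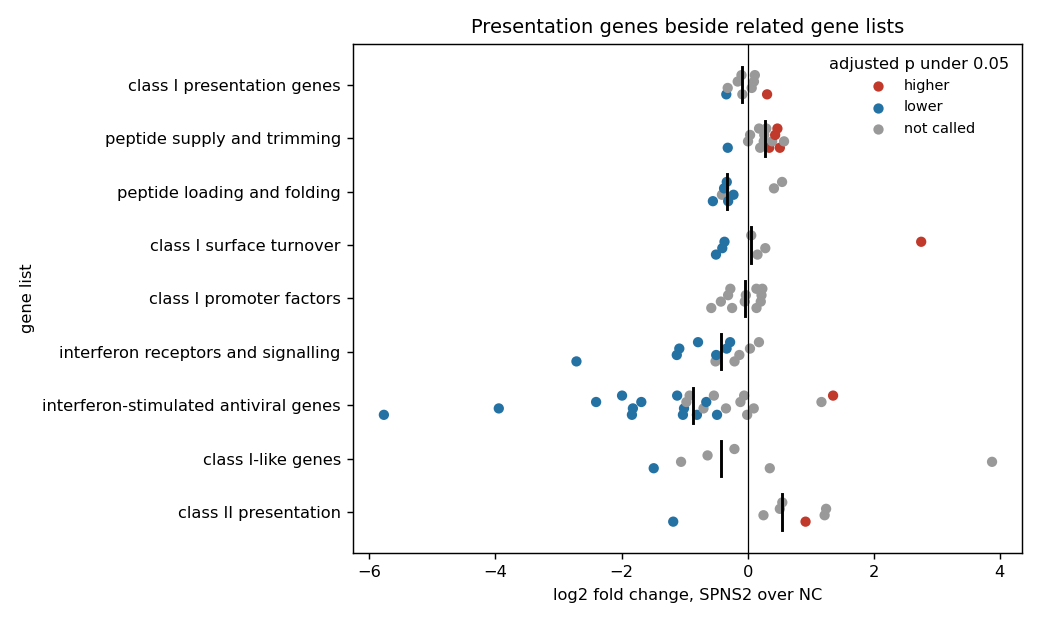
Log2 fold change of SPNS2 over NC for the tested genes of each list, with the list median as a black bar and the color giving the call of the edgeR test. The class I presentation genes lie between -0.34 and 0.31, while the interferon-stimulated antiviral genes reach from -5.77 to 1.36.

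Relatives of class I were measured beside the members. HLA-G, a class I gene of the placenta, had 7 and 8 counts in the SPNS2 libraries and none in the NC libraries, and was not tested. Among 6 tested class I-like genes, 1 fell, none rose and 5 were not called (16.7% called, beside 23.4% of all tested genes). FCGRT, the heavy chain of the neonatal Fc receptor and a partner of B2M, fell to 5.90 ± 0.38 CPM in SPNS2, against 16.6 ± 1.35 CPM in NC (edgeR adjusted p = 0.0068). The class I pseudogenes summed to 4.13 and 4.59 CPM in the SPNS2 libraries and 4.27 and 4.87 CPM in the NC libraries. Of their 3 tested members none was called by edgeR, DESeq2 or limma-voom, and 0 had an unadjusted p under 0.05.

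Class II presentation, normally a trait of professional antigen-presenting cells, was low. Of its 14 listed genes, 7 passed the low-count filter, 1 rose, 1 fell and 5 were not called. The called share of 28.6% is near the 23.4% of all tested genes. HLA-DMA, a peptide-exchange factor, rose 1.89-fold to 6.94 ± 0.792 CPM in SPNS2, against 3.67 ± 0.233 CPM in NC (edgeR adjusted p = 0.0364). CTSS, a lysosomal protease, fell to 15.8 ± 1.36 CPM in SPNS2, against 35.8 ± 0.344 CPM in NC (edgeR adjusted p = 0.006). CIITA, the class II counterpart of NLRC5, had 170 and 150 counts in the SPNS2 libraries, against 23 and 120 in the NC libraries, and was not called (edgeR adjusted p = 0.307).

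Of the 9 members, 7 lie in the major histocompatibility region of chromosome 6. Between GABBR1 and KIFC1, 140 other genes were tested, of which 17 (12.1%) rose and 9 (6.43%) fell. Over all tested genes, 12.1% rose and 11.3% fell. The median log2 fold change of the 140 genes was 0.05. The 6p arm as a whole had a median of -0.04 over 507 tested genes. The genes named next are the extremes among the called genes averaging 5 CPM or more, so their size is set by that choice. TNXB, a matrix glycoprotein of the tenascin family, fell to 1.64 ± 0.16 CPM in SPNS2, against 88.5 ± 6.07 CPM in NC. CFB, complement factor B, fell to 18.04 ± 0.123 CPM in SPNS2, against 95.1 ± 1.37 CPM in NC. At the upper end of these stood ENSG00000250264, which overlaps TAP2, and HLA-DMA.

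**Figure D4:**
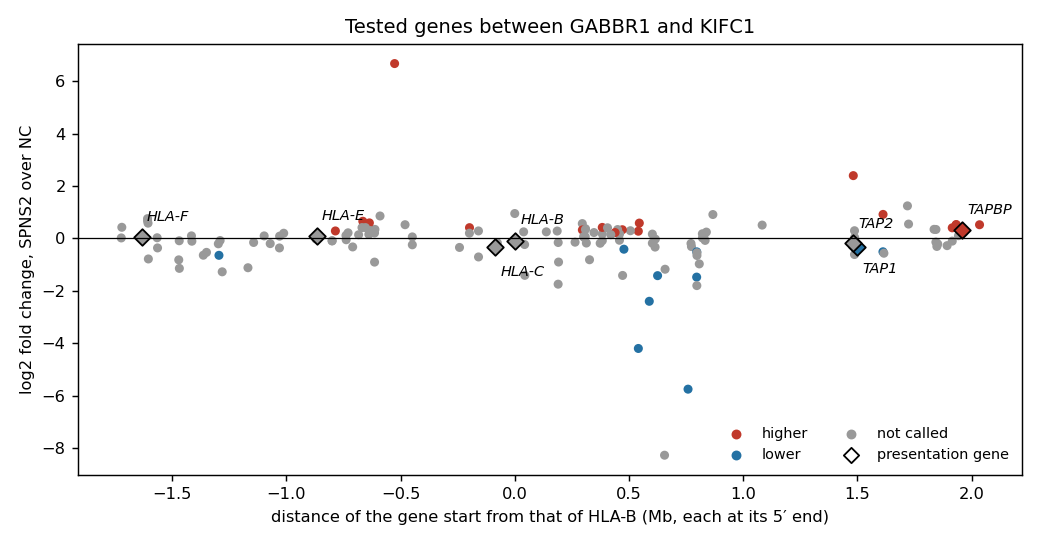
Log2 fold change of SPNS2 over NC for tested genes between GABBR1 and KIFC1, against the distance of each gene's start from that of HLA-B in megabases. Diamonds are the members on chromosome 6, colored by their edgeR call, and they lie between -0.34 and 0.31. Other genes of the region reach from -8.27 to 6.68. Those that were called and average 5 CPM or more reach only from -5.75 (TNXB) to 2.40 (ENSG00000250264).

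**Figure D5:**
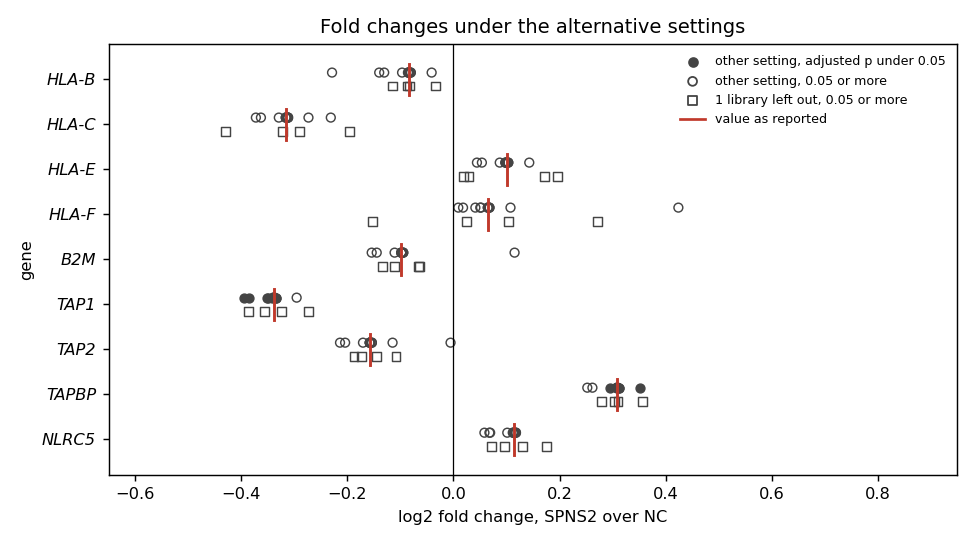
Log2 fold change of each member under the alternative settings, with filled points where the adjusted p was under 0.05 and squares where 1 library was left out. The red bar is the value given above. Filled points appear only for TAP1 and TAPBP, and none of the squares is filled.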

How the data were processed

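RNA-seq of 4 U118-MG libraries was analysed from the counts per gene that the authors deposited. The submitters' processing notes name the build hg38, HISAT2 2.2.1, featureCounts 0.3 and Trim Galore 0.6.9. Strand setting and treatment of multi-mapping reads were not stated. The deposited counts are raw, and 1 row without counts was dropped. The count test was edgeR 4.0.16 in R 4.3.3: genes were kept by filterByExpr (minimum count 10, minimum total 15), scaled by TMM and fitted by group with the quasi-likelihood F-test, two-sided, and p-values were adjusted over all 17853 genes. The script was tested on simulated data. Intervals are 95% intervals of the fit. Positions and exon lengths came from GENCODE 29 on GRCh38, the genome also called hg38, and promoters from RefSeq. Alternatives used DESeq2 1.42.0 and limma 3.58.1, other scalings and filters, a replicate block, arm medians removed and each library left out. The replicate numbers were not taken to pair the libraries, since no label says so.

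The members and gene lists were chosen with earlier results of these data known. The text names all 9 members, SPNS2, the genes with the smallest p in each pathway list (up to 4, fewer for the class I-like, class II and pseudogene lists), in the chromosome 6 region the 2 highest and 2 lowest called genes of at least 5 CPM, and the 3 genes most like NLRC5. Further list genes, such as BST2, BCAP31, GBP1, the PSMB subunits, TAPBPL, CANX, CALR, RFX5, IRF1, WWP2 and CIITA, were named after their values were seen.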

Additional observations from a re-analysis of the deposited data

How the results depend on the processing

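The count of all genes called, 4171, was 2394 when tested against a fold of 1.2 (glmTreat), 1976 with the replicate block and 1712 to 2144 with 1 library left out. Of the 2 called members, 1 was called with upper-quartile factors and 1 with library totals (TAP1 in both), 1 with arm medians removed (TAPBP), and 0 without the low-count filter, with glmTreat, with the replicate block and in each fit with 1 library left out (0 to 0). The 38 called list genes became 18 with glmTreat, 18 with the replicate block, 23 with arm medians removed and 16 to 20 with 1 library left out. The 26 called genes of the chromosome 6 region became 12, 11 and 7 to 15 with glmTreat, the replicate block and 1 library left out. The deviations of same-numbered libraries correlated at -0.0778, so the numbers are not shown to pair them. The log2 fold change of 2 members changed sign, HLA-F without SPNS2 replicate 1 (-0.15, adjusted p = 0.802 in edgeR, with up to 0.27 when another library was left out) and B2M with arm medians removed (0.12, adjusted p = 0.186 in edgeR). Over all alternatives the adjusted p of TAP1 ran from 0.0134 to 0.232 and that of TAPBP from 0.0138 to 0.301, with the lowest in DESeq2, and both kept their direction. The other 7 members were called under none of the alternatives run. HLA-C came closest, with an adjusted p from 0.0582 to 0.363. Leaving out a library leaves 1 group with 1 library, which is then assumed to vary like the other group; beyond these constructions, the cause of the changes was not tested. HLA-F had the fewest counts of the members, 60 to 75 a library.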
